A study of Mus musculus with 6 samples.

Results

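Small ribosomal subunit assembly factors are the proteins that build the precursor of the 40S ribosomal subunit in the nucleolus and finish it on the way to the cytoplasm. A set of 41 genes for such factors was taken by name, of 14661 genes tested and 56689 identifiers listed, and each of the 41 matched 1 Ensembl identifier. The RNA came from mouse embryonic stem cells, pluripotent cells of the early embryo, with 3 wild-type libraries (WT) and 3 libraries of genotype Max-/- (labelled Max-KO), all of strain C57BL/6. Max is the partner that MYC proteins need to bind DNA. The sources used here do not say how the deletion was made, how many clones carry it or whether the 3 samples of a group were grown apart, so each p-value reflects the scatter of these libraries, which may be technical.

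The small subunit processome forms on nascent ribosomal RNA at the site where RNA polymerase I is still transcribing. Its UTP-A proteins bind the start of the transcript first, UTP-B proteins and the U3 small nucleolar ribonucleoprotein follow, and further factors fold, cleave and modify the RNA of the future small subunit. Pre-40S factors then carry the particle out of the nucleus and trim the end of its RNA. Fast-growing cells such as embryonic stem cells make many ribosomes, and genes of this pathway are textbook targets of MYC.

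The values were FPKM, fragment counts scaled to transcript length and library depth, as deposited. The spacing of the low values put the depth at an estimated 21300000 to 28800000 fragments per library. Summed FPKM ran from 743406 to 774405 in WT and from 645169 to 658361 in Max-KO. Max itself was listed at 41.6, 50.2 and 42.3 FPKM in WT 1 to 3 and at 35.8, 39.6 and 43.4 FPKM in Max-KO 1 to 3, so the groups overlapped (log2 difference −0.17 ± 0.10, SE, limma adjusted p = 0.168). A level over the whole gene does not show a missing exon, so this does not check the genotype labels. The 6 pluripotency markers summed to 1525 to 1596 FPKM in WT and 1848 to 1950 in Max-KO, with Pou5f1 at 891 and 992 FPKM on average. Of the 6, 4 were called higher, Sox2, Nanog, Zfp42 and Klf4 (16.5 to 44.9 FPKM), and 2, Pou5f1 and Esrrb, were not called. Germ cell markers (Ddx4, Dazl, Taf7l, Mael and Sycp3) summed to 20.4 to 25.3 FPKM in WT and 891 to 894 in Max-KO, and all 5 were called higher. Feeder fibroblast markers summed to 7.83 to 8.10 and 7.76 to 10.02 FPKM, and the primitive endoderm list to 0.60 to 0.92 and 2.84 to 5.95 FPKM. Of the 2 fibroblast markers tested Col1a1 was called higher (log2 difference 0.51) and Thy1 was not called. All 3 primitive endoderm markers tested, Gata4, Sox17 and Pdgfra, were called higher, at no more than 1.76 FPKM in any library. Trophoblast markers summed to 59.1 to 67.2 FPKM in WT and 76.9 to 98.2 in Max-KO, mostly Krt8 and Krt18. Of the 5 trophoblast markers tested 4 were called higher, with a median log2 difference of 1.33: Gata3 (0.270 to 4.06 FPKM), Elf5 (0.243 to 2.19), Hand1 (1.13 to 5.64) and Krt18, while Cdx2 averaged 0.0267 and 0.167 FPKM and was too low to test. The 4 neural markers summed to 115 to 133 FPKM in WT and 60.1 to 64.9 in Max-KO, mostly Tubb3. Of these, Tubb3 and Pax6 were called lower. Sox1, below 1 FPKM in every library and too low to test, was higher in every Max-KO library than in any WT library. Neurog2, also too low to test, was listed at 0 in all 3 WT libraries. The part of these shifts in the results that follow was not tested, and in bulk RNA fewer cells of a type and less RNA per cell cannot be told apart.

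Most factors were lower in the libraries labelled Max-KO. Of the 41, 32 were called lower and 1 higher (limma, adjusted p under 0.05), and 8 were not called. Among all genes tested 23.2% were called lower and 43.0% higher. The same 32 were those in which every Max-KO library lay below every WT library, against 25.7% of all genes. Only Utp3 lay wholly above, against 46.3% of all genes, and the other 8 overlapped. At least 2-fold falls were found in 5 factors, Rrp9, Rcl1, Wdr43, Utp14a and Nob1, against 4.86% of all genes. Only Rrp9 and Rcl1 kept a 2-fold fall after rescaling to TPM (3.58% of all genes) or with a pseudocount of 5 (2.28%). All 41 were above 8 FPKM in every library, so each passed the filter of a mean of 1 FPKM in both groups and none owed its place to 1 group.

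Changes were moderate in size. The median log2 difference of the 41 was −0.38, against 0.21 for all genes tested (−0.17 against 0.41 after rescaling to TPM, and −0.57 against 0.04 under median-ratio scaling), with a range from −1.50 in Rrp9 to 0.18 in Utp3. Each of the 41 estimates lay below the median of all genes (37 to 41 over the alternatives tried). The median factor in Max-KO kept 76.2% of its WT level in FPKM as deposited. Summed over the 41 genes, the WT level of 2241 ± 18.6 FPKM compared with 1603 ± 23.0 FPKM in Max-KO (SD, n = 3), or 0.297% and 0.246% of all summed FPKM.

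**Figure D1:**
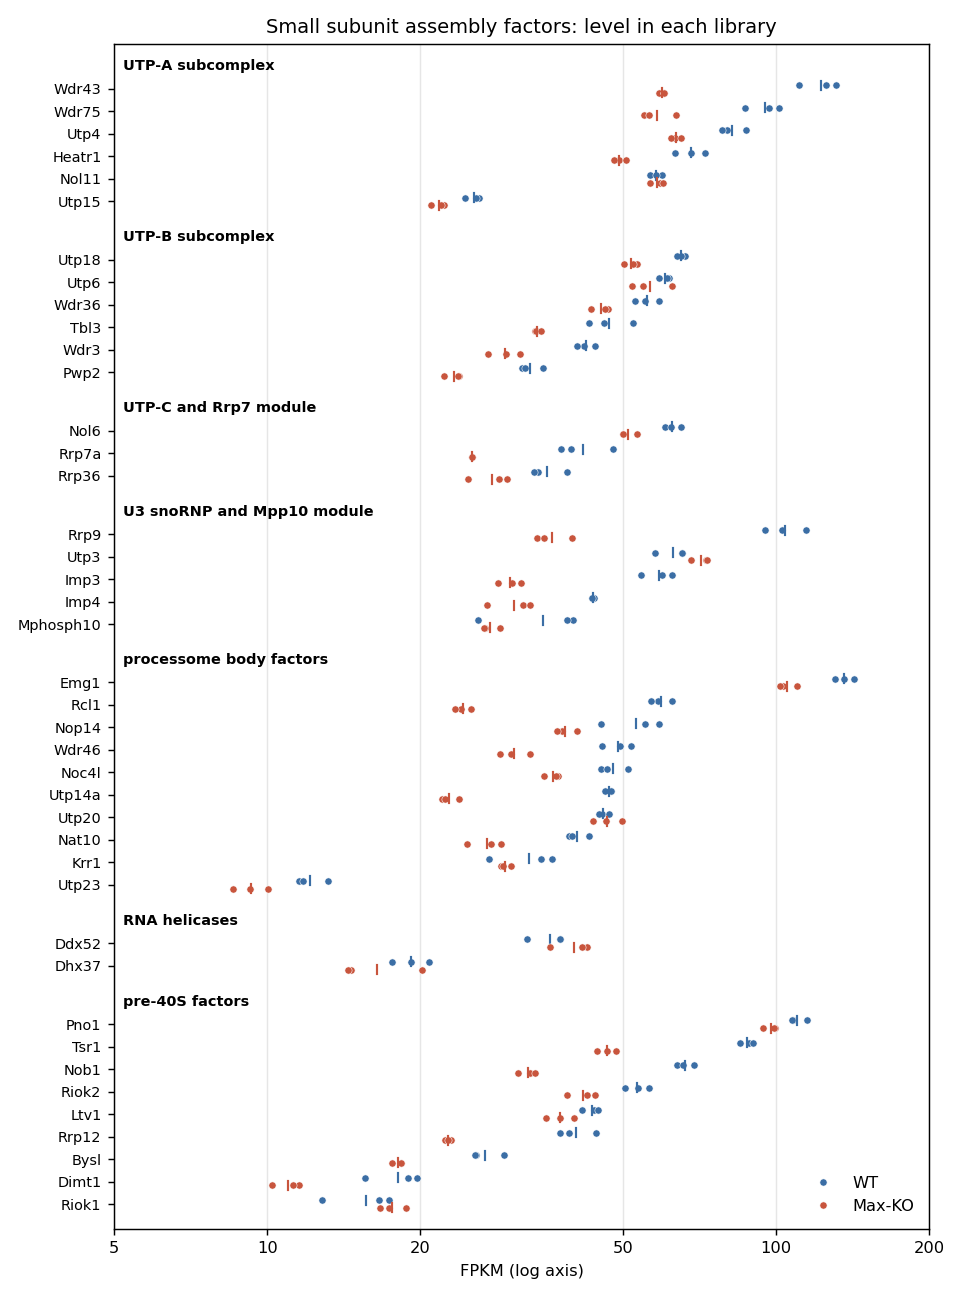
FPKM (log axis) of the 41 factors in each of the 3 WT and 3 Max-KO libraries, grouped by role. Points are libraries and ticks are group means. For 32 factors all Max-KO points lie to the left of all WT points, for Utp3 they lie to the right, and for 8 the groups overlap.

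Because summed FPKM was lower in Max-KO, the scaling of the libraries bore on the smaller changes. After rescaling to TPM, which sets every library to the same sum, 22 factors were lower and 5 higher (Utp3, Nol11, Utp20, Ddx52 and Riok1), with 16.1% of all genes lower. Under median-ratio scaling 37 were lower and none higher, with 31.6% of all genes lower, and 41 of 41 estimates were below 0. Quantile normalization gave 33 lower and 1 higher, with 33% of all genes lower. The median of all genes moved from 0.21 to 0.41 with TPM, 0.04 with median-ratio scaling and −0.02 with quantile normalization, and the share of calls that were higher from 64.9% to 76.9%, 51.4% and 46.7%. A group of 21 factors was called lower in the fit as reported and in all 16 alternatives tried: Utp4, Heatr1, Wdr43, Wdr75, Pwp2, Tbl3, Wdr3, Rrp7a, Rrp9, Imp3, Imp4, Wdr46, Utp14a, Emg1, Rcl1, Nat10, Bysl, Rrp12, Nob1, Tsr1 and Dimt1.

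**Figure D2:**
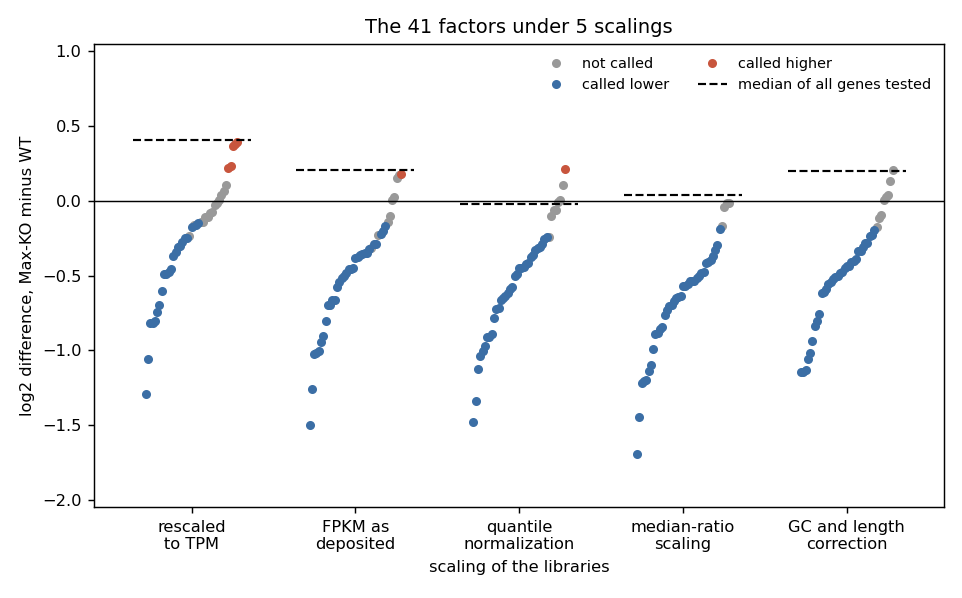
Log2 difference (Max-KO minus WT) of the 41 factors, sorted within each of 5 scalings of the libraries, with the median of all genes as a dashed line. Called lower were 22 factors after rescaling to TPM, 32 with FPKM as deposited, 33 under quantile normalization, 37 under median-ratio scaling and 33 after correcting for GC content and length, and called higher were 5, 1, 1, 0 and 0. Of all genes 16.1%, 23.2%, 33%, 31.6% and 22.3% were called lower, in the same order.

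Promoters of the factors were searched for the canonical E-box, the hexamer CACGTG to which MYC-MAX dimers bind and which reads the same on both strands. RefSeq windows on GRCm38.p6, from 250 bases before to 50 bases after the annotated start, matched 35 of the 41 factors. Utp6, Tbl3, Wdr36, Nol6, Utp23 and Rrp12 had no window. The hexamer was present in 11 of the 35 (31.4%), against 11.8% of tested genes with a window and 8.09% of all genes with one. Counted from the RefSeq start, it lay before the start in 5 and within the first 50 bases after it in 6. In the GENCODE annotation Wdr46 starts earlier, at 33940660, so its hexamer is not upstream of that start. Wdr43 also starts earlier there, at 71615895, before its window begins at 71615965. The hexamer of Wdr43 is thus near the RefSeq start only. The 7 stretches that follow are shown because they carry the hexamer, in capitals, 5′ to 3′ on the strand of the gene. They run from the holder of the hexamer with the largest fall to one that was not called.
Wdr43, chr17:71616220-71616249, plus strand: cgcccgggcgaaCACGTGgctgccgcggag
Tsr1, chr11:74898092-74898121, plus strand: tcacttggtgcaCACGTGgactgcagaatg
Rrp7a, chr15:83122974-83123039, minus strand: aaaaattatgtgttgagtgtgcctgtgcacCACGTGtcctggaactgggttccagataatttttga
Wdr46, chr17:33940693-33940722, plus strand: ctactcaagggagtttcgCACGTGgatcgt
Imp4, chr1:34439696-34439725, plus strand: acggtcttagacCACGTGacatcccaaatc
Utp18, chr11:93885767-93885816, minus strand: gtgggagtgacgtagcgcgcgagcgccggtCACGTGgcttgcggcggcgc
Nol11, chr11:107189389-107189454, minus strand: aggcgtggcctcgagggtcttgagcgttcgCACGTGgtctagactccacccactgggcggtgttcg

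The hexamer did not sort the factors by size of change. Factors with CACGTG had a median log2 difference of −0.36 (11 genes, 9 lower) and those without it −0.45 (24 genes, 18 lower). Rrp9 and Rcl1, with the largest falls, held none in their windows, while Nol11 and Utp20 held one and were not called. The Rrp9 window begins at 106477059, inside the gene as annotated in GENCODE, which starts at 106475963. The sequence around that earlier start was not searched, nor was that around the GENCODE starts of Wdr43 and Heatr1. The Heatr1 window begins at 12395125, after its GENCODE start at 12395027. Over all tested genes the medians were 0.09 with and 0.18 without the hexamer, with 28.4% and 24.4% called lower. The related hexamer CACGCG, on either strand, was in 8 of 35 factors (22.9%, against 19.9% of tested genes). The core of ETS factor sites, CCGGAAG on either strand, was in 13 of 35 (37.1%, against 20.3%). TCTCGCGA on either strand was in 2 of 35, Tsr1 and Nop14 (5.71%, against 2.51%). A window can hold both CACGTG and CACGCG, as that of Rrp7a did, and a match is only a match of letters in a window around 1 annotated start.

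UTP-A proteins, the first to settle on the nascent transcript, were lower in 5 of 6 cases. Wdr43, a WD-repeat subunit, stood at 132, 126 and 111 FPKM in WT 1 to 3 and at 58.9, 60.3 and 60.1 FPKM in Max-KO 1 to 3. The groups lay far apart, and WT 3 was the lowest WT library (log2 difference −1.02 ± 0.07, SE, limma adjusted p = 2.83e-05). Wdr75, another WD-repeat subunit, fell from 95.2 ± 7.44 to 58.4 ± 4.71 FPKM (SD, n = 3). Heatr1, the large helical-repeat subunit, fell from 68.0 ± 4.74 to 49.2 ± 1.36 FPKM, and Utp4 from 82.0 ± 4.81 to 63.6 ± 1.37 FPKM. Utp15 was 25.5 ± 0.858 and 21.7 ± 0.669 FPKM, a fall (−0.22 ± 0.06, limma adjusted p = 0.0154) that did not pass after rescaling to TPM (−0.01) or without WT 1, WT 2 or Max-KO 1 (adjusted p = 0.0590, 0.0506 and 0.0509). Nol11, the subunit that partners Utp4, was at 59.7, 56.6 and 58.3 FPKM in WT and 59.2, 59.9 and 56.5 FPKM in Max-KO. Its groups overlapped throughout, and the log2 difference of 0.01 had a 95% interval of −0.11 to 0.13. It was higher after rescaling to TPM (0.22, adjusted p = 9.66e-03) and lower under median-ratio scaling (−0.19, adjusted p = 0.0217). Mean levels of the 6 subunits spanned 4.82-fold in WT and 2.93-fold in Max-KO, and Wdr43 and Wdr75, the most abundant in WT, fell the most.

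UTP-B proteins, which dock the U3 particle, were lower in 5 of 6 cases, with none at 2-fold. Wdr3 was at 44.2, 42.0 and 40.6 FPKM in WT and 27.2, 29.4 and 31.3 FPKM in Max-KO, without overlap (−0.51 ± 0.07, limma adjusted p = 6.10e-04). Pwp2 fell from 32.9 ± 1.70 to 23.2 ± 0.894 FPKM and Tbl3 from 47.0 ± 4.82 to 34.0 ± 0.427 FPKM (SD, n = 3). These are the tandem WD-repeat scaffolds of the complex. Utp18 (−0.32 ± 0.05) and Wdr36 (−0.29 ± 0.06), a gene also studied in glaucoma, were called lower, and both calls were lost after rescaling to TPM (−0.11 and −0.08). Utp6 was at 61.6, 61.2 and 58.9 FPKM in WT and 62.6, 52.1 and 54.8 FPKM in Max-KO. Max-KO 1 was the highest of its 6 libraries and the other 2 Max-KO libraries were below all WT libraries (−0.10 ± 0.08, limma adjusted p = 0.258). Without Max-KO 1 it passed as lower (−0.18, adjusted p = 0.0463), as it did under median-ratio scaling (−0.30, adjusted p = 0.0108) and, again, after correcting for GC content and length (−0.23, adjusted p = 0.0270).

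The UTP-C and Rrp7 module, here Nol6, Rrp7a and Rrp36, was lower in all 3 members. Rrp7a was at 39.6, 37.8 and 47.9 FPKM in WT and within 25.3 FPKM in each Max-KO library, a fall of 0.69 on the log2 scale (SE 0.09, limma adjusted p = 5.22e-04). Its Max-KO libraries were the closest to each other of any factor, with an SD of 0.0208 FPKM. Nol6, a nucleolar scaffold, was at 60.6, 62.1 and 65.0 FPKM in WT and 50.2, 53.2 and 50.1 FPKM in Max-KO (−0.29 ± 0.05, limma adjusted p = 3.00e-03). The call of Nol6 was lost after rescaling to TPM (−0.08), and after correcting for GC content and length the difference was 0.01. Rrp36 was lower by a log2 difference of −0.35 ± 0.09 (limma adjusted p = 0.0121), a call that neither of these changes kept (adjusted p = 0.238 and 0.175).

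The U3 particle and the Mpp10 module that pairs U3 with the precursor held both the largest fall and the one rise. Rrp9, the protein specific to the U3 particle, was at 95.1, 102.8 and 114.8 FPKM in WT and 33.9, 35.0 and 39.8 FPKM in Max-KO. The lowest WT library was over 2-fold above the highest Max-KO library, and the mean in Max-KO was 34.7% of that in WT (−1.50 ± 0.09, limma adjusted p = 1.60e-05). Rrp9 went from the fourth most abundant factor in WT to rank 20 in Max-KO. Imp3, a small RNA-binding protein encoded by a single exon, fell from 58.9 ± 4.19 to 30.1 ± 1.58 FPKM (SD, n = 3; −0.95 ± 0.07). Its partner Imp4 fell from 43.6 ± 0.196 to 30.5 ± 3.11 FPKM (−0.51 ± 0.08).

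The third partner, Mphosph10, was at 39.9, 38.9 and 25.9 FPKM in WT and 26.8, 28.6 and 26.7 FPKM in Max-KO. WT 3 lay at the Max-KO level, apart from WT 1 and 2, and the difference missed the threshold (−0.31 ± 0.16, 95% interval −0.69 to 0.06, limma adjusted p = 0.120). Without WT 3 it passed (−0.51, adjusted p = 6.24e-04), as it did under median-ratio scaling (adjusted p = 0.0199), quantile normalization (0.0383) and after correcting for GC content and length (5.43e-03). Utp3, also known as Sas10 and likewise encoded by a single exon, was at 65.5, 65.3 and 57.8 FPKM in WT and 72.9, 68.2 and 73.1 FPKM in Max-KO. Every Max-KO library was above every WT library, and the call as higher was narrow (0.18 ± 0.07, limma adjusted p = 0.0465). Leaving out any 1 of the 6 libraries ended it (adjusted p = 0.0547 to 0.122), and under median-ratio scaling the difference was −0.01. At 0.18 it lay just under the median of all genes.

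Among factors of the processome body, 8 of 10 were lower. Rcl1, a cyclase-like protein, was at 58.7, 56.9 and 62.4 FPKM in WT and 24.1, 23.4 and 25.2 FPKM in Max-KO, groups that did not approach each other (−1.26 ± 0.06, limma adjusted p = 7.11e-06). Its cofactor, the GTPase Bms1, averaged 53.9 ± 3.22 and 50.04 ± 0.963 FPKM with overlapping libraries (−0.10 ± 0.06, limma adjusted p = 0.165). Utp14a, which activates the helicase Dhx37, was at 47.4, 47.5 and 46.1 FPKM in WT and 22.0, 23.8 and 22.3 FPKM in Max-KO (−1.02 ± 0.06). These Utp14a values were tight in both groups, and the mean fell to 48.4% of WT. Its paralog Utp14b, known for a role in the male germ line, was at 4.45, 4.44 and 3.10 FPKM in WT and 4.73 to 5 FPKM in the 3 Max-KO libraries. Those lay above all WT libraries, but the difference was not called (0.25 ± 0.13, limma adjusted p = 0.139).

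The remaining body factors fell by less. Wdr46, a scaffold of the particle, fell from 49.0 ± 3.22 to 30.6 ± 2.07 FPKM (SD, n = 3) and Nat10, the acetyltransferase of small subunit RNA, from 40.7 ± 2.04 to 27.0 ± 2.08 FPKM. Nop14, Noc4l and Emg1 work together on the particle, Emg1 as a methyltransferase. Emg1 was the most abundant factor in both groups, at 131, 136 and 143 FPKM in WT and 110.2, 103 and 102 FPKM in Max-KO (−0.37 ± 0.06, limma adjusted p = 1.03e-03). Noc4l had a log2 difference of −0.38 ± 0.07, which was −0.11 and not called after correcting for GC content and length (adjusted p = 0.0818). Nop14 had one of −0.45 ± 0.10, not called after rescaling to TPM (−0.24, adjusted p = 0.0973). Utp23, a relative of nucleases and the least abundant factor, was at 13.2, 11.5 and 11.7 FPKM in WT and 8.56, 10.02 and 9.26 FPKM in Max-KO (−0.36 ± 0.09, limma adjusted p = 0.0110, and 0.168 after rescaling to TPM).

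Utp20 and Krr1 were the body factors that did not pass. Utp20, a very large helical-repeat protein, was at 45.5, 46.9 and 44.9 FPKM in WT and 46.4, 49.8 and 43.6 FPKM in Max-KO, with full overlap (0.02 ± 0.06, 95% interval −0.13 to 0.17, limma adjusted p = 0.755). It was called higher after rescaling to TPM (0.23, adjusted p = 0.0181) and lower after correcting for GC content and length (−0.20, adjusted p = 0.0194). Krr1, an RNA-binding protein of the particle, was at 36.2, 34.5 and 27.3 FPKM in WT and 28.8, 30.1 and 29.1 FPKM in Max-KO. Here too WT 3 stood apart, below all 3 Max-KO libraries (−0.14 ± 0.11, limma adjusted p = 0.272), and without it Krr1 passed as lower (−0.26, adjusted p = 6.87e-03). It also passed under median-ratio scaling (−0.33, adjusted p = 0.0200) and after correcting for GC content and length (−0.39, adjusted p = 2.55e-03).

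Neither RNA helicase was called. Dhx37, which strips U3 from the precursor, was at 20.8, 17.6 and 19.1 FPKM in WT and 14.6, 20.2 and 14.4 FPKM in Max-KO. Max-KO 2 lay among the WT libraries and the other 2 below them (−0.23 ± 0.14, 95% interval −0.55 to 0.09, limma adjusted p = 0.178). Without Max-KO 2 it was called lower (−0.38, adjusted p = 0.0156), and likewise under median-ratio scaling (−0.41, adjusted p = 0.0301) and quantile normalization (−0.44, adjusted p = 0.0281). Ddx52, a DEAD-box helicase, was at 37.6, 37.7 and 32.4 FPKM in WT and 42.5, 41.7 and 36.01 FPKM in Max-KO. Max-KO 3 overlapped the WT range (0.15 ± 0.09, 95% interval −0.06 to 0.37, limma adjusted p = 0.172), and Ddx52 passed as higher after rescaling to TPM (0.37, adjusted p = 0.0160).

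Pre-40S factors, which act last, were lower in 8 of 9 cases with a median log2 difference of −0.54. Nob1, the endonuclease that makes the final cut in small subunit RNA, was at 64.0, 65.7 and 69.0 FPKM in WT and 32.8, 33.6 and 31.1 FPKM in Max-KO (−1.01 ± 0.06, limma adjusted p = 1.29e-05). Pno1, the RNA-binding partner of Nob1, was at 115, 108 and 107 FPKM in WT and 99.6, 99.3 and 94.4 FPKM in Max-KO. Nob1 thus stood at 49.1% of its WT level and Pno1 at 88.7%, with 95% intervals of −1.14 to −0.87 and −0.29 to −0.05, and the gap between the partners was not itself tested. The fall of Pno1 (−0.17 ± 0.05, limma adjusted p = 0.0224) was 0.04 after rescaling to TPM, and was not called without WT 1, Max-KO 2 or Max-KO 3 (adjusted p = 0.0839, 0.0503 and 0.0700), under quantile normalization (0.344) or without the variance trend (0.0588).

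Tsr1, a GTPase-like protein that keeps the immature subunit from early translation, fell from 87.8 ± 2.63 to 46.5 ± 2.02 FPKM (SD, n = 3; −0.90 ± 0.06). Rrp12, an export factor, fell from 40.4 ± 3.49 to 22.7 ± 0.271 FPKM (−0.80 ± 0.07). Dimt1, the dimethyltransferase of the subunit's RNA, fell from 18.1 ± 2.20 to 10.99 ± 0.692 FPKM and Bysl from 26.9 ± 2.08 to 18.1 ± 0.414 FPKM. Ltv1, a factor shed late in maturation, had a smaller fall (−0.20 ± 0.07, limma adjusted p = 0.0299). It was 0.01 after rescaling to TPM, and was not called without WT 1, WT 2, Max-KO 1 or Max-KO 3 (adjusted p = 0.0724 to 0.0921), without a filter (0.0573) or without the variance trend (0.0542).

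The atypical kinases Riok1 and Riok2, which act on successive pre-40S particles, did not give the same call. Riok2 fell from 53.5 ± 2.91 to 41.9 ± 2.71 FPKM (SD, n = 3; −0.35 ± 0.07, limma adjusted p = 3.85e-03), a call lost after rescaling to TPM (−0.14). Riok1 was at 16.6, 17.4 and 12.8 FPKM in WT and 17.3, 16.7 and 18.8 FPKM in Max-KO, with WT 3 below all other libraries (0.17 ± 0.12, limma adjusted p = 0.234). After rescaling to TPM Riok1 passed as higher (0.38, adjusted p = 0.0340). The intervals of the 2 kinases, −0.51 to −0.18 and −0.11 to 0.45, did not meet, and the difference between them was not itself tested.

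**Figure D3:**
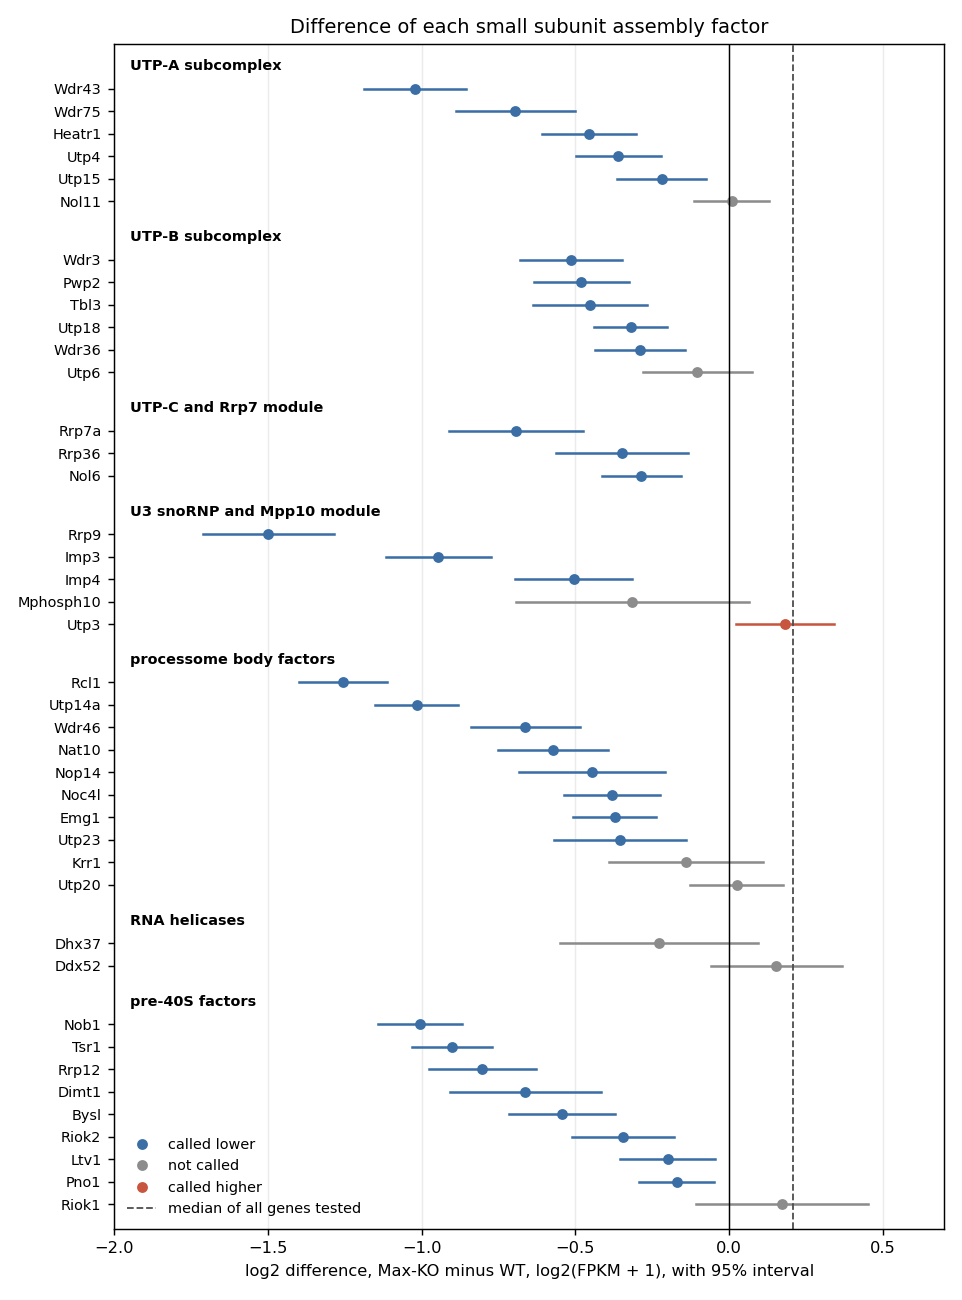
Log2 difference (Max-KO minus WT on log2(FPKM + 1)) of each factor with its 95% interval, by role; colours give the call, and the dashed line is the median of all genes tested (0.21). Rrp9 lies lowest at −1.50 and Utp3 highest at 0.18, and every role but the helicases has most members called lower; after rescaling to TPM 22 were called lower and 5 higher.

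Several factors start head to head with another gene, so that a pair of genes shares 1 promoter region. Within 1 kb, 10 factors had such a protein-coding partner that was tested, with 12 gene records of 11 symbols. Of the 12, 3 were lower, 3 higher and 6 not called, with a median log2 difference of 0.14. Of all genes tested 23.2% were lower and 43.0% higher, with a median of 0.21. Partner calls are for FPKM as deposited, and those under the other scalings are not given. Bysl and Med20, a Mediator subunit, start 90 bases apart: Bysl had a difference of −0.54 ± 0.07, and Med20 rose from 15.0 to 25.3 FPKM (0.72 ± 0.07, limma adjusted p = 1.31e-04). Gm20517, a predicted gene that starts 97 bases from Bysl, also rose (0.79 ± 0.15). Utp15 and Ankra2, 33 bases apart, differed likewise, with Ankra2 up from 8.75 to 11.05 FPKM (0.31 ± 0.08, limma adjusted p = 0.0114).

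Among the other partners, 3 gene records were lower and the rest were not called. Pfdn6 beside Wdr46, Ccdc115 beside Imp4 and Ddx51 beside Noc4l had differences of −0.08 ± 0.06, −0.01 ± 0.06 and 0.05 ± 0.12, none called, while the 3 factors were lower. Gdap2 beside Wdr3 (0.23) and Mbtd1 beside Utp18 (0.29) were not called either. Phb2, a prohibitin beside Emg1, fell from 243 to 133 FPKM (−0.86 ± 0.08), more than Emg1 itself. Mcee, a mitochondrial enzyme beside Mphosph10, which was not called, fell from 17.5 to 8.42 FPKM (−0.97 ± 0.13), and Chtf8 beside Utp4 was lower in 1 of its 2 gene records (−0.23 ± 0.07).

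**Figure D4:**
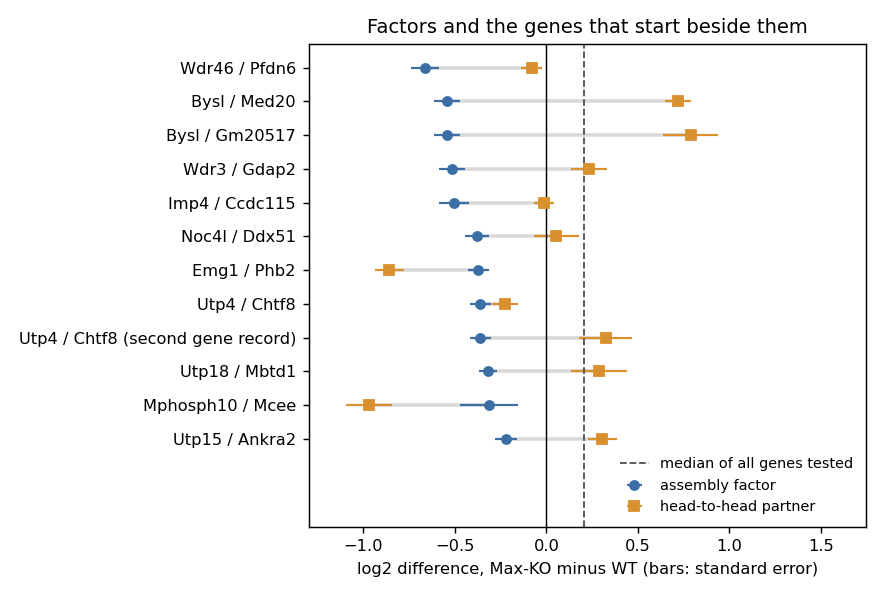
Log2 difference (Max-KO minus WT, with standard error) of 10 factors (circles) and of the protein-coding genes that start head to head with them within 1 kb (squares), 12 gene records in all. Bysl at −0.54 lies far below Med20 at 0.72, whereas Phb2 (−0.86) and Mcee (−0.97) lie below Emg1 and Mphosph10.

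Reads of overlapping genes on opposite strands cannot be told apart unless the library kept strand, and the labels name an Illumina TruSeq kit without saying so. In GENCODE M21, 10 factors shared exon bases with a tested gene on the opposite strand. Wdr3 shares 820 bases with Spag17, a ciliary gene listed at 1.94 FPKM in WT and 20.7 FPKM in Max-KO, so the level of Wdr3 in Max-KO is uncertain. Dimt1 shares 1229 bases with Kif2a (27.9 and 23.0 FPKM), Tsr1 shares 1240 with Srr (1.45 and 2.91) and Rrp7a shares 678 with Serhl (10.8 and 10.1). Bysl shares 361 bases with Ccnd3 (114 and 89.8 FPKM), Emg1 shares 334 with Lpcat3 (28.7 and 34.4) and Krr1 shares 352 with Glipr1 (0.0167 and 1.503). Kif2a and Ccnd3 were listed above Dimt1 (18.1 and 10.99 FPKM) and Bysl (26.9 and 18.1) in both groups, and both were lower in Max-KO. The levels of Dimt1 and Bysl are therefore uncertain as well. None of the alternatives tried removed shared bases. Processed pseudogenes, 94.9% to 98.9% identical over 450 to 840 aligned bases, were found for Dimt1, Imp3, Rrp7a and Tsr1. None of these averaged above 0.383 FPKM in either group. Utp23 was left out of this listing, so any near-copies of it are not given. Wdr43 holds 3 annotated small nucleolar RNA genes and Tsr1 holds 2.

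A list of 31 other small subunit factors in the files had 19 lower, 1 higher and 11 not called, with a median log2 difference of −0.26. Of all genes tested 23.2% were lower and 43.0% higher. This list and those that follow were counted in FPKM as deposited, and not under the other scalings. Mybbp1a, a nucleolar MYB-binding protein, fell from 370 ± 18.9 to 136 ± 4.72 FPKM (SD, n = 3; −1.44 ± 0.06), and Aatf, a processome subunit, from 51.7 ± 1.47 to 19.8 ± 0.377 FPKM (−1.34 ± 0.05). The smallest fall called was that of the helicase Dhx15 (−0.22 ± 0.05). The helicase Ddx10 was the one called higher, at 42.6, 42.6 and 30.1 FPKM in WT and 53.1, 56.4 and 51.7 FPKM in Max-KO (0.49 ± 0.13, limma adjusted p = 0.0151), with WT 3 lowest. Esf1 had a larger difference that was not called (0.67 ± 0.28, limma adjusted p = 0.0720). It was at 21.7, 22.6 and 10.6 FPKM in WT and 27.3, 30.6 and 26.9 FPKM in Max-KO, without overlap. All 3 subunits of casein kinase 2, which joins UTP-C, were not called, at −0.09 to −0.11.

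The shared core of box C/D particles, to which U3 belongs, had 3 of 4 members lower, against 23.2% of all genes. Nop56 fell from 364 ± 5.61 to 139.9 ± 6.95 FPKM (SD, n = 3), the methyltransferase Fbl from 353 ± 24.6 to 159 ± 3.93 FPKM, and Snu13 from 119.7 ± 7.93 to 91.7 ± 2.72 FPKM. Nop58 was at 275, 327 and 192 FPKM in WT and 229, 207 and 193 FPKM in Max-KO, with WT 3 at the Max-KO level (−0.31 ± 0.19, limma adjusted p = 0.1999).

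Factors of the large subunit were lower in 44 of 51 cases with none higher, with a median of −0.54. Among all genes the shares were 23.2% lower and 43.0% higher. Nle1, which acts on late particles of the large subunit, fell from 43.8 to 10.6 FPKM and Gnl3 from 190 to 72.9 FPKM, and the smallest fall called was in Lsg1 (−0.22). The 33 small subunit ribosomal proteins, the cargo of the small subunit factors, were all lower in FPKM as deposited, with a median of −0.67. Rps12 fell the most (96.8 to 36.7 FPKM) and Rps28 the least (−0.30). Whether these lists differ from the 41 factors was not tested.

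**Figure D5:**
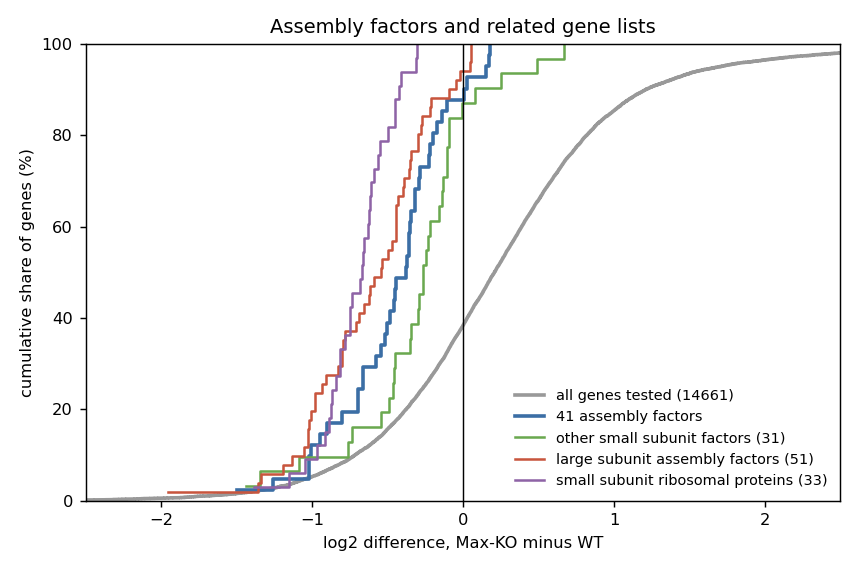
Cumulative share (%) of genes at or below each log2 difference (Max-KO minus WT) for the 41 factors, 3 related lists and all 14661 genes tested, with the axis cut at 2.5 on each side. Medians run from −0.67 (small subunit ribosomal proteins) over −0.54 (large subunit factors), −0.38 (the 41 factors) and −0.26 (other small subunit factors) to 0.21 (all genes).

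Spread between libraries was not even across factors. The coefficient of variation had a median of 6.57% in WT and 4.21% in Max-KO. It was highest in Mphosph10 in WT (22.3%), Dhx37 in Max-KO (19.9%) and Riok1 in WT (15.6%). WT 3 was the lowest WT library for 20 of the 41 and the highest for 14. Its deviation from the WT mean went with the GC content of the factor's longest transcript (across the 41 genes, Pearson r = 0.698 and Spearman rho = 0.690; r = 0.304 across 14650 genes), against r = −0.662 in WT 1 and −0.460 in WT 2. In Max-KO these values were −0.179, 0.049 and 0.121. Genes of 1 library share its depth and base composition, so these correlations describe the libraries only. The log2 difference went with GC content more weakly (r = −0.388, rho = −0.407). Without WT 3, 34 factors were lower and none higher, with 22.6% of all genes lower. The order of the factors by level was similar in both groups (Spearman rho 0.837 across the 41).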

How the data were processed

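The deposited values are FPKM per gene and library, made by the authors; no file header names the unit, which was read from the values and the series' description. Build GRCm38.p6 stands in the submitters' processing notes, which list DESeq 1.26.0, RSEM, HISAT2 2.1.0 and FastQC without role or order. Symbols, coordinates, length and GC content came from GENCODE M21 (GRCm38). Assembled loci without a gene were left out. The test took genes whose mean reached 1 FPKM in either group, and modelled log2(FPKM + 1) by limma 3.58.1 under R 4.3.3 (robust moderation with a variance trend, 2-sided, genotype as the only factor), with Benjamini-Hochberg adjustment over 14661 genes. Fold changes are on the log2(FPKM + 1) scale, which understates changes of low genes. All adjusted p-values are limma's. Alternatives were pseudocounts of 0.1 and 5, no filter and a filter of 5 FPKM, TPM, median-ratio and quantile scaling, limma without trend and robust moderation, the replicate number as a block, a correction for GC content and length, and leaving out each library.

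The members, lists, roles and motifs were chosen with earlier results of these data known. Values in every library are given for the largest and smallest change of each role, members not called or higher, and the extremes of level and spread. On simulated data of 14661 genes, planted differences of −1 and −0.5 (log2) were recovered in 88% and 44% of cases, and 8 of 14461 unchanged genes were called. In the real data far more genes were called, 23.2% lower and 43.0% higher. That makes the adjusted p threshold easier to pass, so these recovery rates do not carry over. Depth was estimated from the steps of low values, of which 82.7% to 86.3% lay within 0.15 of a whole multiple; by that estimate each factor had at least 395 fragments in every library, taking its longest transcript. Reads were not rebuilt. The promoter windows were checked for strand: their bases after the start matched a GENCODE transcript of the same symbol in 77.6% of cases on the strand given and in 0% on the other. Joins and figures used pandas 2.3.3 and matplotlib 3.10.9 (Python 3.11.15).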

Additional observations from a re-analysis of the deposited data

How the results depend on the processing

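The count of factors called lower stayed within 1.5 times its reported value of 32 in each of the 16 alternatives, from 22 after rescaling to TPM to 37 under median-ratio scaling, and from 29 to 34 when 1 library was left out. Of all genes 16.1% and 31.6% were lower under those scalings, and 21% to 22.6% when 1 library was left out. The count called higher, 1 as reported, was 5 after rescaling to TPM and 0 with no filter, under median-ratio scaling, without the trend and robust moderation, with the replicate block, with the GC content and length correction and without any 1 library (0 to 0). Estimates changed sign for 5 factors under median-ratio scaling (Nol11 −0.19, Utp3 −0.012, Utp20 −0.17, Ddx52 −0.038 and Riok1 −0.013), for 4 after rescaling to TPM (Pno1 0.041, Ltv1 0.0089, Utp6 0.11 and Krr1 0.067), for 4 with the GC and length correction (Nol6 0.0068, Utp20 −0.20, Nol11 −0.096 and Dhx37 0.039) and for 2 under quantile normalization (Utp20 −0.010 and Riok1 −0.060). Of the factors called as reported, these were Utp3, Pno1, Ltv1 and Nol6. Leaving out 1 library took Nol11 from −0.012 to 0.033 and Utp20 from −0.024 to 0.070, and turned no other factor. The causes were not tested. In the labels, libraries shared only a number across groups. The deviations of same-numbered libraries correlated at −0.001, 0.016 and 0.086, and those of differently numbered ones at −0.082 to 0.065. These values do not settle whether libraries were paired. The fit with the replicate block called 32 factors lower and 0 higher, with Utp3 at adjusted p = 0.0743, and 3282 genes lower and 6203 higher in all, against 3403 and 6300. With a filter of 5 FPKM, which leaves fewer genes to test, 3970 genes were higher in all. With 3 libraries a group, a factor not called is not shown to be unchanged. The simulated data cannot say how often a difference was missed here, because they held far fewer changed genes.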
